A study of Mus musculus with 6 samples.

Results

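The genes described here are transcription factors and their regulators that set and hold astrocyte fate: Sox9, 3 nuclear factor I genes (Nfia, Nfib, Nfix), 4 inhibitors of DNA binding (Id1, Id2, Id3, Id4) and Hes1 and Hes5. They were listed by name, and each was read from the probe set that carries its symbol alone and has the highest mean over the arrays. All 10 were measured, out of 22180 genes with such a probe set. Gene expression came from 6 Affymetrix arrays, 1 for each macrodissected brain lesion, 3 of them transgenic and 3 wild type. The transgene allows non-proliferating GFAP-positive astrocytes to be removed by apoptosis, but its promoter and construct are not named in the labels. Every lesion, transgenic or wild type, was made with LPC, a lipid that strips myelin, in animals 5 to 6 weeks old. CID, the compound that sets off ablation, was given to both groups 48 hours later, and tissue was taken 7 days after the lesion. The labels do not name the strain, and no unlesioned or vehicle-treated group was analysed here.

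Sox9 and the NFI factors act early in the switch of neural stem cells from making neurons to making glia, and in mouse spinal cord Sox9 induces Nfia and the proteins then act together on astrocyte genes. Id proteins have a helix-loop-helix but no DNA-binding basic region, so they hold E proteins away from DNA and block proneural and oligodendrocyte factors; BMP signalling raises their transcription. Hes1 and Hes5 are repressors that Notch signalling switches on, and they keep progenitors and glia from taking a neuronal course. None of these genes is confined to astrocytes: oligodendrocyte lineage cells, neurons and vessel cells use several of them.

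Transgenic lesions were set against wild type ones to see how these factors stand after astrocytes were targeted. Sox9, Nfia and Id4 were lower on every transgenic array than on every wild type array, and Id2 was higher on every transgenic array. Nfib, Nfix, Id1, Id3, Hes1 and Hes5 overlapped between the groups. As many members had lower means as had higher ones, 5 of 10 each, with a median difference of 0.003 on the log2 scale. Over all 41345 probe sets 51.1% had lower means, and the median difference was -0.007.

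No member passed an adjusted p of 0.05 in limma, with adjusted p-values of 0.447 to 0.922, and 0% of all probe sets passed (0 of 41345). At an unadjusted p under 0.05, 4 members stood out, Sox9 and Id4 on the lower side and Id2 and Hes1 on the higher, where 8.87% of all probe sets did (4.05% lower, 4.82% higher). Groups separated fully downward in 3 of 10 members, where 7.60% of all probe sets did, and upward in 1 of 10, where 8.54% did. Levels are log2 values of RMA intensities, and differences are transgenic minus wild type on that scale. The labels do not say whether each lesion is a different animal, and the tests therefore cover only the spread between these samples. The median half-width of the 95% confidence interval of a member was 0.42. That is before adjustment, and differences larger than it, such as those of Sox9 and Id4, did not pass the adjusted threshold.

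**Figure D1:**
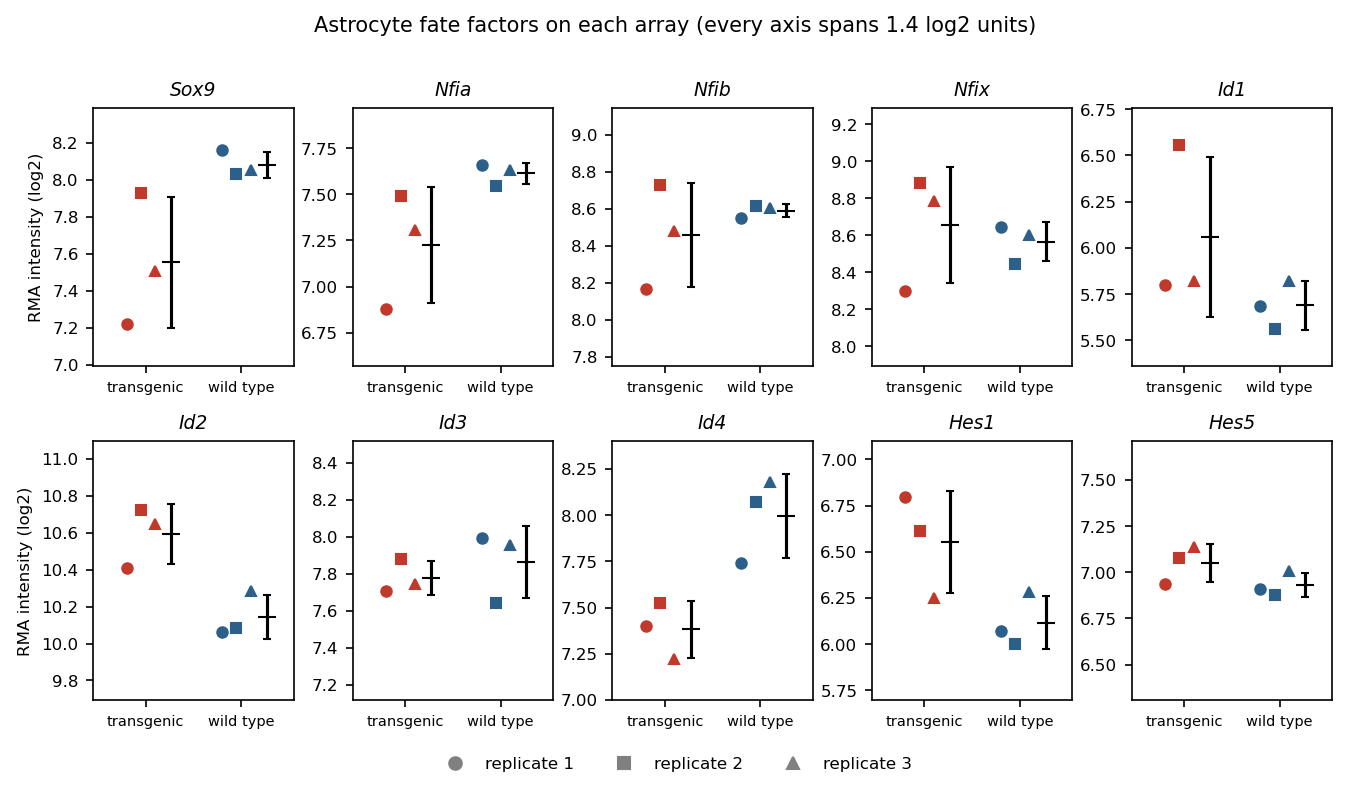
Each panel plots one gene, with the log2 RMA intensity of 3 transgenic arrays (red, left) and 3 wild type arrays (blue, right); symbols give the replicate, and black marks give the mean and SD. Sox9, Nfia and Id4 are lower on every transgenic array, Id2 is higher on every one, and the other genes overlap.

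Some properties of the arrays bear on every gene below. Xist, the X-inactivating RNA of females, was above the Y-linked Eif2s3y on all 3 wild type arrays and on transgenic array 2, and below it on transgenic arrays 1 and 3. Markers of striatal neurons were high on wild type arrays 2 and 3, with list means of 8.16 and 8.79, against 5.99 to 6.53 on the rest. Gfap, the filament protein that marks the targeted cells, stood at 8.91, 8.82 and 9.24 on transgenic arrays 1, 2 and 3, against 9.83, 9.18 and 9.09 on wild type arrays 1, 2 and 3. The groups overlapped, and the difference was -0.37 (SE 0.23, adjusted p 0.695 in limma). In bulk tissue, fewer cells of a type and less RNA per cell cannot be told apart.

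Sox9, an HMG-box factor on chromosome 11 (probe set 17257946), stood at 7.22, 7.93 and 7.51 on transgenic arrays 1, 2 and 3, against 8.16, 8.03 and 8.05 on wild type arrays 1, 2 and 3. The wild type lesions lay within 0.13 of each other, whereas the transgenic lesions spread over 0.71, and the highest transgenic array came within a short step of the lowest wild type array. The means were 7.55 ± 0.36 in transgenic and 8.08 ± 0.07 in wild type lesions (SD, n = 3 each), a difference of -0.53 (SE 0.20, 95% confidence interval -0.997 to -0.06), or 1.44-fold lower. Its adjusted p in limma was 0.524. On the arrays where Xist was above Eif2s3y, which keep transgenic array 2 alone, the difference was -0.15, while it was -0.61 when the wild type arrays high in striatal markers were left out. Genotype and sex cannot be told apart on transgenic arrays 1 and 3, since no wild type array shares their pattern.

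Nfia (chromosome 4, probe set 17415606), the partner of Sox9 at the onset of gliogenesis, stood at 6.88, 7.49 and 7.31 on transgenic arrays 1, 2 and 3, against 7.66, 7.55 and 7.63 on wild type arrays 1, 2 and 3. Its order over the transgenic arrays was that of Sox9, with array 1 lowest and array 2 just under the wild type range. Nfia averaged 7.23 ± 0.31 in transgenic and 7.61 ± 0.06 in wild type lesions (SD, n = 3 each), a difference of -0.39 (SE 0.19, 95% confidence interval -0.82 to 0.05, adjusted p 0.604 in limma). Transgenic array 1 carried much of it: without that array the difference was -0.21, and with transgenic array 2 as the only transgenic array it was -0.12. After each array was centred on its own median, which lifts transgenic array 2, Sox9 and Nfia kept their lower means (-0.47 and -0.33) but their groups overlapped, while Id4 stayed fully lower and Id2 fully higher.

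The RefSeq promoter window of Nfia, 250 bases before to 50 after the start, is shown because Nfia is the member of the NFI family that separated the groups. It lies at chr4:97581693-97581992 on the plus strand of GRCm38.p6. Capitals mark CANNTG, the E-box that E proteins and their partners bind and that Id proteins keep them from; as its own reverse complement the pattern reads the same on either strand.
Nfia: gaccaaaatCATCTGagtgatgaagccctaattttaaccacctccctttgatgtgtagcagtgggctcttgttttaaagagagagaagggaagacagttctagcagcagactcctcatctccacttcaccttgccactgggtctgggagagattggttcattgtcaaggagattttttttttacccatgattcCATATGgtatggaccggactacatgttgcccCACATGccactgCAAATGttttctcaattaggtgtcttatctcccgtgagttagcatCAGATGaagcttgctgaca
The window holds 5 such matches, at 241, 57, 26 and 14 bases before the start and 31 after it. The pattern is common, with at least 1 match in 72.3% of 32851 RefSeq promoter windows of the same length, but 5 or more matches occur in 2.10%. The match is a description of letters and not of binding.

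Nfib (chromosome 4, probe set 17426765), a close relative of Nfia that also acts in glial and cortical development, stood at 8.17, 8.73 and 8.48 on transgenic arrays 1, 2 and 3, against 8.55, 8.62 and 8.61 on wild type arrays 1, 2 and 3. Transgenic array 1 lay below and transgenic array 2 above the whole wild type range, so the groups overlapped. The means were 8.46 ± 0.28 in transgenic and 8.59 ± 0.04 in wild type lesions (SD, n = 3 each), a difference of -0.13 (SE 0.17), and without transgenic array 1 its sign turned, to 0.014.

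Nfix (chromosome 8), which acts in neural stem cells and their glial progeny, had 2 probe sets. The brighter one (17511142) stood at 8.30, 8.88 and 8.79 on transgenic arrays 1, 2 and 3, against 8.65, 8.45 and 8.60 on wild type arrays 1, 2 and 3, a difference of 0.09 (SE 0.19). The other (17503214) differed by 0.13 (SE 0.15), at 6.30, 6.53 and 6.14 in transgenic and 6.27, 6.18 and 6.13 in wild type lesions. Transgenic array 2 was the highest of all 6 arrays on either probe set. The 3 NFI genes, on the brighter probe sets, thus shared their lowest transgenic array while their mean differences spanned -0.39 to 0.09; no test of the difference between genes was made.

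The Id genes differed from one another in direction. Id4 (chromosome 13, probe set 17287081), which in the mouse is expressed in neural stem cells and astrocytes, stood at 7.40, 7.52 and 7.22 on transgenic arrays 1, 2 and 3, against 7.74, 8.07 and 8.18 on wild type arrays 1, 2 and 3. All transgenic arrays were low, transgenic array 2 included, and the gap to the lowest wild type array was larger than that of Sox9 or Nfia. Id4 averaged 7.38 ± 0.15 in transgenic and 7.996 ± 0.23 in wild type lesions (SD, n = 3 each), a difference of -0.61 (SE 0.17, 95% confidence interval -1.02 to -0.21), or 1.53-fold lower. This was the smallest p of the 10 genes, at 0.00841 unadjusted and 0.447 adjusted in limma. With transgenic array 2 as the only transgenic array the difference was -0.47.

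Within the wild type group Id4 was highest on arrays 2 and 3, where striatal markers and the genes of neuroblasts and the subventricular zone were also high. The neuroblast list had means of 6.68 and 6.91 on those arrays and of 6.27 on wild type array 1, against 5.92 to 6.17 in transgenic lesions, and all 7 measured members had lower means in transgenic lesions. Their summed intensity lay between 562 and 782 in transgenic and between 767 and 1318 in wild type lesions. Without wild type arrays 2 and 3, Id4 differed by -0.36. The part of these cells in the Id4 difference was not tested.

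Id2 (chromosome 12, probe set 17280310), which in addition to glia is found in cortical neurons, stood at 10.41, 10.72 and 10.65 on transgenic arrays 1, 2 and 3, against 10.06, 10.08 and 10.28 on wild type arrays 1, 2 and 3. Every transgenic array was above the wild type range. The means were 10.59 ± 0.16 in transgenic and 10.14 ± 0.12 in wild type lesions (SD, n = 3 each), a difference of 0.45 (SE 0.15, 95% confidence interval 0.09 to 0.81), or 1.37-fold higher, at an adjusted p of 0.494 in limma. Leaving out any 1 array kept it between 0.39 and 0.54, and it was 0.58 with transgenic array 2 alone and 0.53 without the arrays high in striatal markers. All 6 measured cortical neuron markers also had higher means in transgenic lesions, with list means of 7.498, 8.27 and 7.94 on transgenic arrays 1, 2 and 3, against 7.48 to 7.55 on wild type arrays. Transgenic array 1 lay within the wild type range of that list mean, but not of the summed intensity. The sums were 1391, 2327 and 1972 on transgenic arrays 1, 2 and 3, against 1240 to 1305 in wild type lesions. Lamp5 was the 1 marker of 6 that was fully higher, where 8.54% of all probe sets were. On transgenic array 1 no other marker of the list was above its wild type range. Lamp5 stood there at 9.12, against 8.26 to 8.87 on wild type arrays, so the higher sum on that array rests on Lamp5. The part of cortical neurons in the Id2 difference was not tested.

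The RefSeq promoter windows of Id4 and Id2 are shown together because these related genes separated the groups in opposite directions. Capitals mark GGCGCC, a palindrome that reads the same on either strand and that occurs in BMP-response elements bound by SMAD proteins. Id4 lies at chr13:48260866-48261165 on the plus strand and Id2 at chr12:25096043-25096342 on the minus strand of GRCm38.p6.
Id4: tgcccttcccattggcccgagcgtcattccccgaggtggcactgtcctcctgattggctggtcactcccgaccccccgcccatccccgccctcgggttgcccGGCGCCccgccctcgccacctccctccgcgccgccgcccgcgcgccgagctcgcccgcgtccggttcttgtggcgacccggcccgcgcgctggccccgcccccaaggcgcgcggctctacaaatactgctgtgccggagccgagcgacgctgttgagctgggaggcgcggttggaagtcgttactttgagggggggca
Id2: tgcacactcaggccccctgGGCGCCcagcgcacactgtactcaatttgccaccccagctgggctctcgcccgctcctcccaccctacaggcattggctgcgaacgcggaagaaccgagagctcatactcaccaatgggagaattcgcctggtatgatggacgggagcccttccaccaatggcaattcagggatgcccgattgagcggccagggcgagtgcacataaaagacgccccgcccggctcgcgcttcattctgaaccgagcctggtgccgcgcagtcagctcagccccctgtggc
Each window holds 1 match, 148 bases before the start in Id4 and 231 before it in Id2, where 11.9% of all windows hold at least 1. The windows are rich in G and C, at 73.3% in Id4 and 63.3% in Id2 against a median of 52.7% over all windows, and a motif of G and C is more frequent in such sequence. The E-box pattern occurs once in Id2 and not in Id4. The shared GGCGCC match thus stands beside opposite differences. The window of Id3, whose groups overlapped, holds no match of GGCGCC or of the E-box pattern.

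Id1 (chromosome 2, probe set 17377778), an Id gene of vessel cells and of BMP-exposed glia, stood at 5.80, 6.56 and 5.82 on transgenic arrays 1, 2 and 3, against 5.69, 5.56 and 5.82 on wild type arrays 1, 2 and 3. Transgenic array 2 alone was high, and the other arrays of either group lay within the same narrow span. The means were 6.06 ± 0.43 in transgenic and 5.69 ± 0.13 in wild type lesions (SD, n = 3 each), a difference of 0.37 (SE 0.23). It was 0.12 without transgenic array 2 and 0.87 with that array as the only transgenic one. Endothelial markers had 5 of 10 members lower. Their list mean on transgenic array 2, at 5.85, lay within the 5.72 to 5.86 of wild type lesions, but their summed intensity did not. The sums were 576, 781 and 766 on transgenic arrays 1, 2 and 3, against 632 to 716 in wild type lesions. The part of vessel cells in the Id1 difference was not tested.

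Id3 (chromosome 4, probe set 17420016), often raised together with Id1 by BMP, stood at 7.71, 7.88 and 7.74 on transgenic arrays 1, 2 and 3, against 7.99, 7.64 and 7.96 on wild type arrays 1, 2 and 3. It was one of only 2 members, with Id4, that varied more within the wild type than within the transgenic group, and the groups overlapped. Id3 averaged 7.78 ± 0.09 in transgenic and 7.86 ± 0.19 in wild type lesions (SD, n = 3 each). The difference was -0.09 (SE 0.16, 95% confidence interval -0.45 to 0.28).

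Of the Notch targets, Hes1 (chromosome 16, probe set 17324623), which holds back proneural genes, stood at 6.79, 6.61 and 6.25 on transgenic arrays 1, 2 and 3, against 6.07, 6.00 and 6.28 on wild type arrays 1, 2 and 3. Transgenic arrays 1 and 2 were above all wild type arrays, and transgenic array 3 was just below the highest of them. Hes1 was thus highest on the array where Sox9 and Nfia were lowest. It averaged 6.55 ± 0.28 in transgenic and 6.12 ± 0.15 in wild type lesions (SD, n = 3 each), a difference of 0.44 (SE 0.18, 95% confidence interval 0.01 to 0.87, adjusted p 0.561 in limma), or 1.35-fold higher. Leaving out any 1 array gave 0.31 to 0.59, and array weights gave 0.18.

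Hes5 (chromosome 4), the Hes gene most closely tied to Notch in neural progenitors, had 2 probe sets and overlapped on both. The brighter one (17422443) stood at 6.93, 7.08 and 7.14 on transgenic arrays 1, 2 and 3, against 6.91, 6.88 and 7.00 on wild type arrays 1, 2 and 3, a difference of 0.12 (SE 0.14, 95% confidence interval -0.20 to 0.44). The other (17433696) differed by -0.01 (SE 0.22), with transgenic array 1 lowest at 5.60 and the rest between 5.92 and 6.29.

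The RefSeq promoter window of Hes5, at chr4:154960673-154960972 on the plus strand of GRCm38.p6, is shown because Hes5 is one of the Notch targets among these genes. Capitals mark GTGGGAA on either strand, the core that RBPJ, the DNA-binding partner of Notch, is known to bind.
Hes5: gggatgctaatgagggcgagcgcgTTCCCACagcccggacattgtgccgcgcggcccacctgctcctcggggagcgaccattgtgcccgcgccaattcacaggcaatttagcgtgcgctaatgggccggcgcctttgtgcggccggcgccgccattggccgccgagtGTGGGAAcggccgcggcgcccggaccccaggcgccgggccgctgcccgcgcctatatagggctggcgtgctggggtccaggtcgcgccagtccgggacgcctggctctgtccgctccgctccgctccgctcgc
It holds 2 matches, 226 bases before the start on the reverse strand and 83 before it on the forward strand. Of all windows 6.38% hold at least 1 match and 0.256% hold 2 or more. The same window holds 4 matches of GGCGCC, none overlapping GTGGGAA, where 0.0548% of all windows hold 4 or more. This window is 72.7% G and C, against a median of 52.7% over all windows. A motif of G and C is more frequent in such sequence, so the share over all windows overstates how unusual the 4 matches are. The NFI pattern TTGGC and the Sox pattern ACAAT were also searched, with 2 matches each in this window. Promoter windows were matched for 6 of the 10 members, and Sox9, Nfib, Id1 and Hes1 had no entry.

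**Figure D2:**
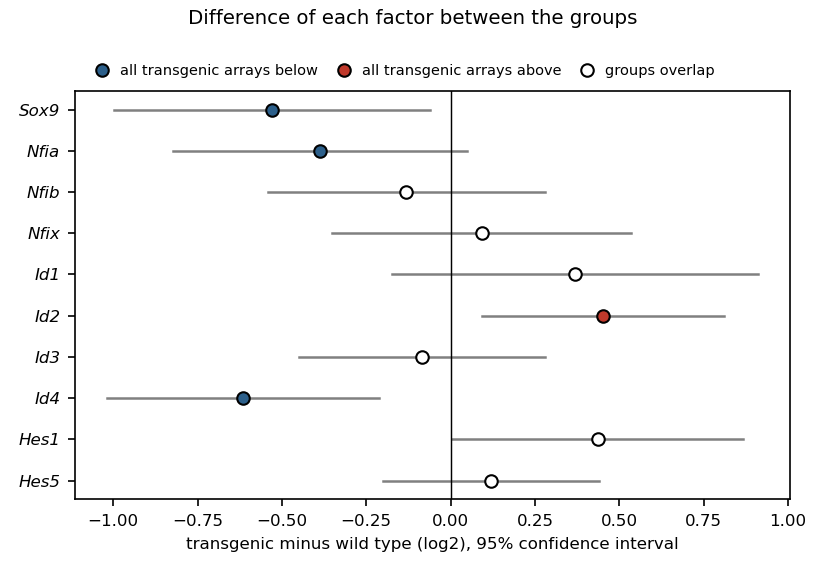
The plot gives the difference of each gene, transgenic minus wild type in log2 units, with its 95% confidence interval from limma; blue points have all transgenic arrays below, the red point all above, and white points overlap. The intervals of Sox9 and Id4 lie below 0 and those of Id2 and Hes1 above it, before adjustment for the number of probe sets.

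The members varied more among transgenic than among wild type lesions. The SD of a gene ran from 0.09 to 0.43 in transgenic and from 0.04 to 0.23 in wild type lesions, and it was larger in transgenic lesions for 8 of 10 members and for 71.6% of all probe sets. Within the transgenic group, array 1 was lowest for 8 of 10 members, all but Id4 and Hes1, and array 2 was highest for 8 of 10, all but Hes1 and Hes5. Among all probe sets above the median level, as all 10 members were, array 1 was lowest for 46.3% and array 2 highest for 47.5%.

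Astrocyte markers had the same low array, and so did neuron markers. Of 11 measured astrocyte markers, 6 had lower and 5 higher means (median difference -0.17). Within the transgenic group, 10 of the 11 were lowest on array 1. General neuron markers were lowest there in 9 of 9 and cortical neuron markers in 5 of 6. Neuroblast and ependymal markers were lowest there in 2 of 7 and 1 of 6. The summed intensity of the astrocyte markers was 3618 on transgenic array 1 and 5419 and 5204 on transgenic arrays 2 and 3, against 5188 to 5499 in wild type lesions. Gja1, a gap junction protein (-0.36), and Mlc1, a membrane protein of astrocyte endfeet (-0.30), were lower on every transgenic array, and the other 9 markers overlapped. That is 2 of 11 fully lower, where 7.60% of all probe sets were. On transgenic array 3, where Sox9 and Id4 were below the wild type range, Gja1, Mlc1 and the glutamate transporter Slc1a3 were below it too. Slc1a2, Gjb6 and Aldoc were above it on that array. The astrocyte list mean there, at 8.49, lay within the 8.42 to 8.51 of wild type lesions. Mature oligodendrocyte markers had lower means in all 8 measured members, and all 8 were fully lower. Their sums were 3517 to 6595 in transgenic and 8445 to 10640 in wild type lesions. Precursor markers had lower means in 6 of 6, but 0 of 6 were fully lower. Their sums were 548 to 681 in transgenic and 736 to 893 in wild type lesions. Sox9, Nfia and Id4 were below the wild type range in every transgenic lesion, as were the summed mature oligodendrocyte and precursor markers. The astrocyte sum was below it on transgenic array 1 alone. The part of any cell type in the differences of Sox9, Nfia and Id4 was not tested.

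**Figure D3:**
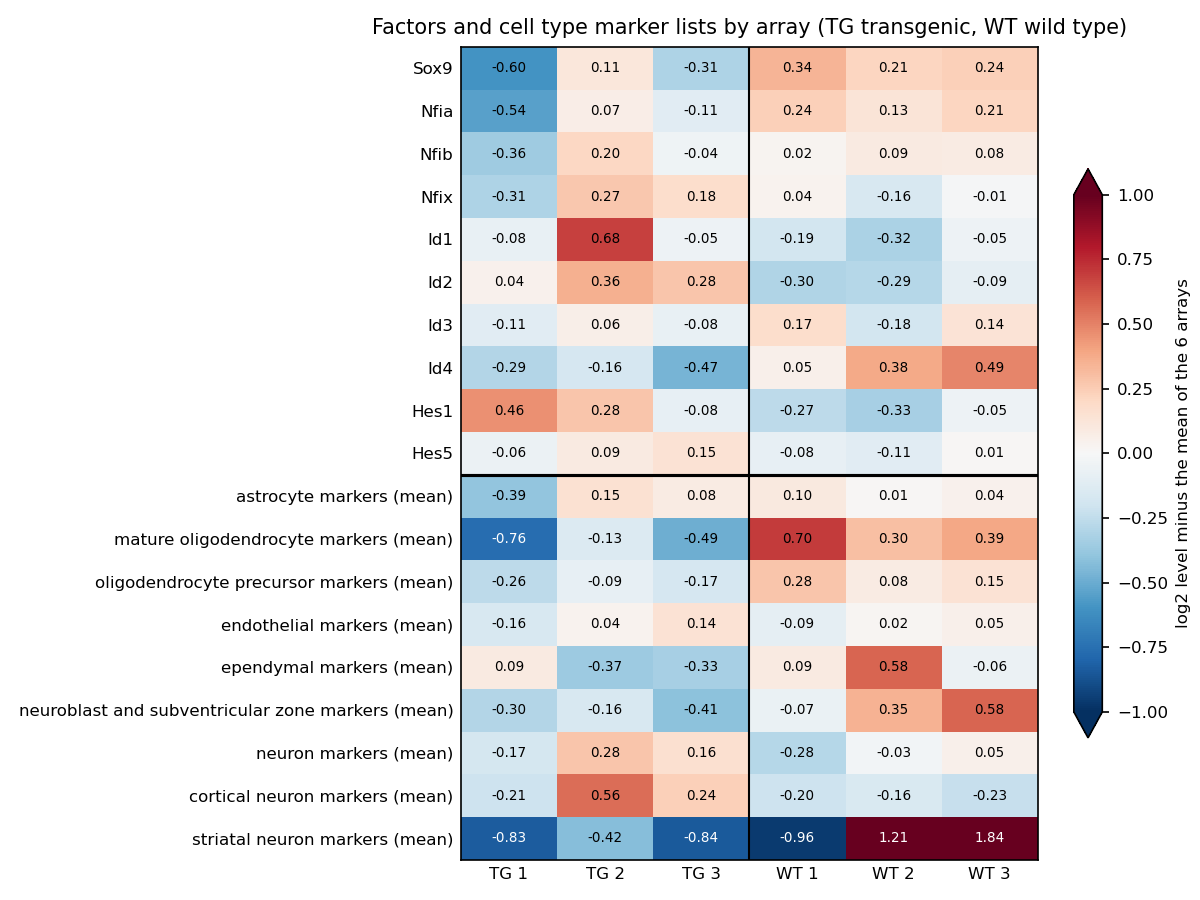
Each cell gives the log2 level of a gene, or the mean level of a marker list, minus its mean over the 6 arrays; columns are the 3 transgenic (TG) and 3 wild type (WT) arrays, and the colour scale ends at 1 in either direction. Sox9 (-0.60) and Nfia (-0.54) are lowest on transgenic array 1, as are the astrocyte (-0.39) and mature oligodendrocyte (-0.76) lists, while Hes1 (0.46) is highest there.

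The members depended on single arrays to different degrees. Sox9, Nfia, Id4 and Id2 separated the groups fully, so leaving out arrays could change the size of their differences but not the direction. With 1 array left out, Sox9 ran from -0.72 to -0.36 and Nfia from -0.52 to -0.21. Id4 ran from -0.74 to -0.52 and Id2 from 0.39 to 0.54. Hes1, which overlapped, stayed higher with each array left out, on the arrays with Xist above Eif2s3y, and without the arrays high in striatal markers. When limma estimated weights for the arrays, Sox9 (adjusted p 0.0248), Id2 (0.0271) and Id4 (0.0133) passed, as did 6.32% of all probe sets. That fit gave transgenic array 3 a weight of 7.67 and transgenic arrays 1 and 2 weights of 0.284 and 0.258, so the transgenic side rested on 1 lesion. The same weights gave 0.18 for Hes1, at an unadjusted p of 0.181, and 0.17 for Id1.

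**Figure D4:**
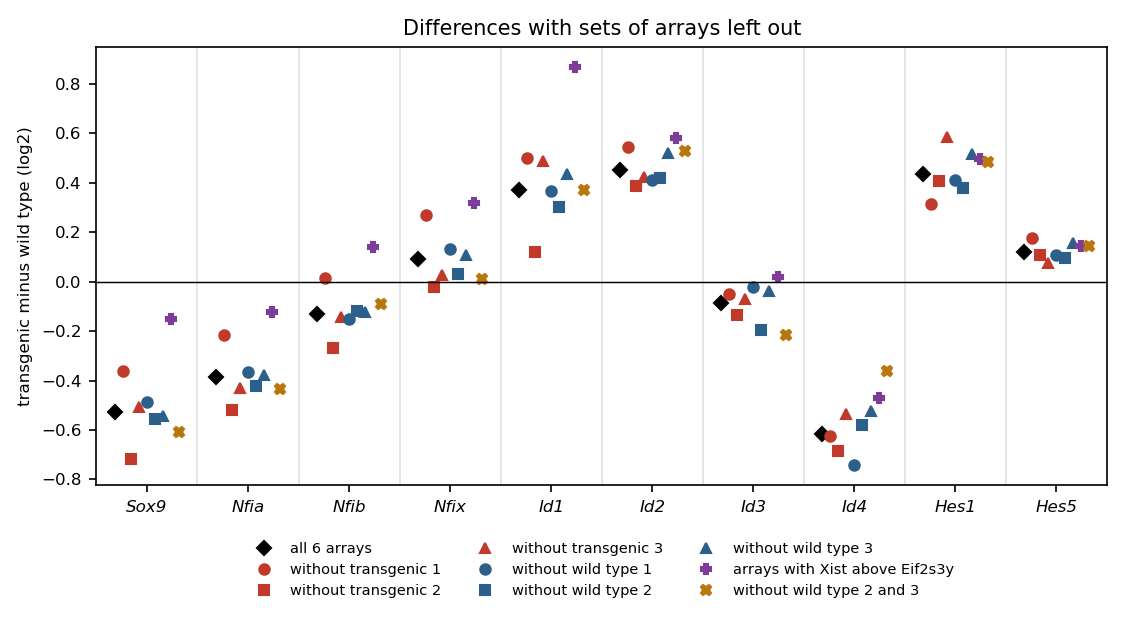
The plot gives the difference of each gene, transgenic minus wild type in log2 units, with all 6 arrays (black), with 1 transgenic (red) or wild type (blue) array left out, on the arrays with Xist above Eif2s3y (purple) and without wild type arrays 2 and 3 (brown). Sox9 shrinks to -0.15 and Id1 grows to 0.87 where transgenic array 2 is the only transgenic array. Id2 and Id4 cannot change direction here, since their groups do not overlap.

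Other Sox factors had the lowest median among the related lists. Of 10 measured, 7 had lower and 3 higher means, with a median difference of -0.40, and 4 were fully lower. Over all probe sets 51.1% had lower means and 7.60% were fully lower, and no gene of the list passed the adjusted threshold. Sox8, a relative of Sox9 found in oligodendrocytes and astrocytes, stood at 6.53, 7.04 and 6.82 on transgenic arrays 1, 2 and 3, against 7.54, 7.56 and 7.69 on wild type arrays 1, 2 and 3. The difference was -0.80 (SE 0.17, adjusted p 0.365 in limma). Sox10, the oligodendrocyte relative, differed by -0.75 (SE 0.17) and Sox4, a factor of immature neurons and glia, by -0.70 (SE 0.18), the same way on both of its probe sets. Sox2, a factor of stem cells and glia, had the largest difference of the list, -0.89 (SE 0.27), and is named after its value was seen. The median of the list was -0.19 without transgenic array 1, -0.07 on the arrays with Xist above Eif2s3y and -0.60 once dim probe sets were removed.

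Notch pathway genes had a median difference of -0.05 over 26 measured members, with 16 lower and 10 higher means. The receptor Notch1 stood at 6.42, 6.25 and 6.47 on transgenic arrays 1, 2 and 3, against 6.69, 6.60 and 6.81 on wild type arrays 1, 2 and 3, a difference of -0.32 (SE 0.14). Mfng, an enzyme that adds sugars to Notch, differed by -0.29 (SE 0.16) and Rbpj by -0.23 (SE 0.14), although a second probe set of Rbpj was higher. These 3 of 26 were fully lower, where 7.60% of all probe sets were, and none was fully higher. In limma 0 of 26 passed an unadjusted or adjusted p of 0.05. Rbpj was -0.07 over both probe sets and -0.14 without wild type array 1, and Mfng was -0.18 without wild type array 3.

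Of 10 measured bHLH factors and E proteins, the classes that Id proteins oppose, 7 had lower and 3 higher means, with a median of -0.09. Olig2, which specifies oligodendrocytes, differed by -0.71 (SE 0.28), Olig1, its neighbour in the same lineage, by -0.36 (SE 0.14) and the E protein Tcf3 by -0.37 (SE 0.16). Olig2 was -0.42 without transgenic array 1 and -0.25 on the arrays with Xist above Eif2s3y, and Tcf3 was -0.21 without wild type arrays 2 and 3. BMP signalling genes, which include the inducers of Id transcription, had 12 lower and 7 higher means of 19 measured and a median of -0.07. Smad7, an inhibitory SMAD, differed by -0.54 (SE 0.19), Smad4, the shared SMAD, by -0.41 (SE 0.14) and Chrd, a secreted BMP antagonist, by 0.46 (SE 0.19). The adjusted p-values of these 6 genes in limma were 0.503 to 0.573.

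LIF and CNTF signalling, which drives astrocyte genes through STAT3, had 6 lower and 3 higher means of 9 measured and a median of -0.24. The ligand Lif differed by -0.39 (SE 0.16), the ligand Clcf1 by -0.31 (SE 0.15) and their shared receptor subunit Il6st by -0.57 (SE 0.28). Il6st stood at 8.89 on wild type array 1, against 8.13 and 8.16 on the other wild type arrays, and it differed by -0.32 without wild type array 1 and by -0.35 without transgenic array 1. Clcf1 differed by -0.20 without transgenic array 2. Lif and Clcf1 lay at 5.20 and 5.10 in transgenic and 5.59 and 5.41 in wild type lesions, close to the array medians of 5.34 to 5.59. No detection calls are given, so whether such low levels are above background is unknown.

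Other factors linked to astrocyte identity had 7 lower and 6 higher means of 13 measured, with a median of -0.003. Zbtb20, a zinc finger factor of astrocytes and hippocampal neurons, differed by -0.83 (SE 0.22) and Pax6, a factor of radial glia and neuroblasts, by -0.55 (SE 0.17), each fully lower. Etv5, an ETS factor downstream of FGF signalling, differed by 0.52 (SE 0.14) and was fully higher, but its second probe set was lower, and over both it differed by 0.18. In limma these 3 had adjusted p-values of 0.430 to 0.480. Of the 13, 2 were fully lower and 1 fully higher, where 7.60% and 8.54% of all probe sets were. The 3 genes that Sox9 and Nfia induce together in mouse spinal cord overlapped between the groups: Zcchc24 differed by -0.32 (SE 0.29), Mmd2 by -0.02 (SE 0.15) and Apcdd1 by 0.05 (SE 0.27). Zcchc24 was -0.009 without transgenic array 1. In no related list did a gene pass the adjusted threshold. After median centring the medians of the Notch list (0.003), the astrocyte identity list (0.051) and the 3 target genes (0.031) were above 0.

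**Figure D5:**
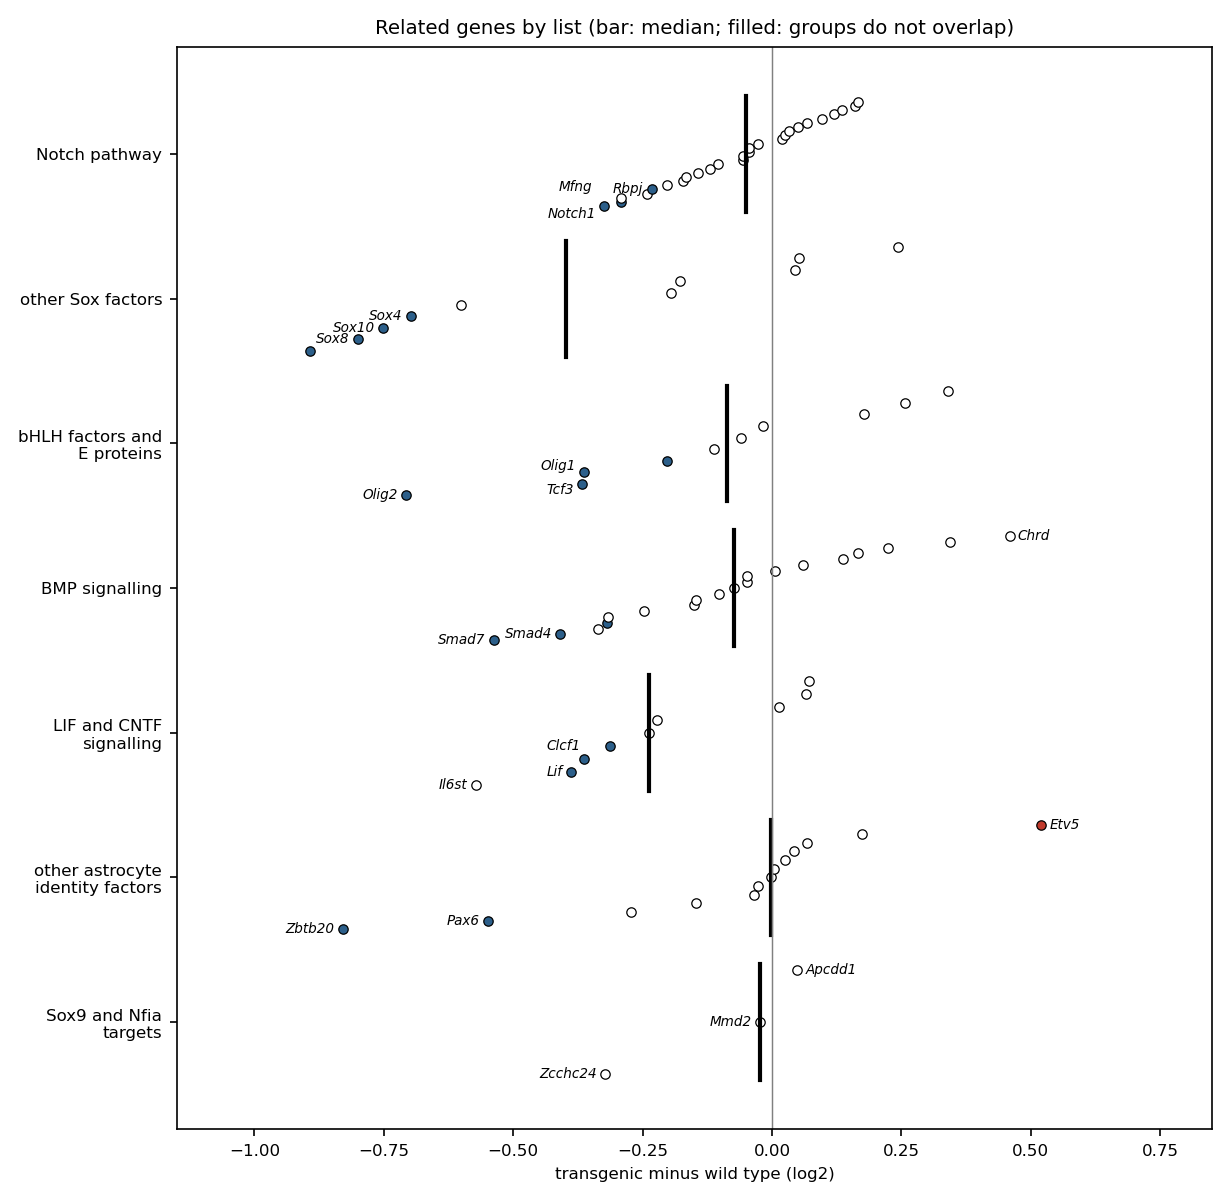
Each point is a gene of a related list, placed by its difference, transgenic minus wild type in log2 units; bars give list medians, blue points are fully lower and the red point fully higher, and the up to 3 genes with the smallest p are named. Other Sox factors have a median of -0.40, and the other lists lie between -0.24 and -0.003.

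Genes were ranked by how closely their levels followed those of 4 members over the 6 arrays, among 13044 other genes above the median level. Nfia was followed most closely by Mbp, the protein that compacts myelin (Pearson r 0.999, and 0.994 without transgenic array 1), then Zcchc14 (0.998) and Lrp4 (0.994). Sox9 was followed by the histone methyltransferase Kmt5a (0.994), the myelin gene Mobp (0.991) and Clmn (0.990). Id3 was followed by Tnfaip3, an inhibitor of NF-kB signalling (0.994), Spsb1 (0.981) and Lyst (0.980), and Hes5 by Zfp654 (0.993), the potassium channel gene Kcnh5 (0.988) and Mpp3 (0.986). With 6 arrays such values are common: 655 genes had an r over 0.9 with Nfia, 408 with Sox9, 143 with Hes5 and 39 with Id3. The arrays share the group difference and the low transgenic array 1, so these likenesses are a description of the 6 arrays.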

How the data were processed

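Expression was measured on 6 Affymetrix arrays, and groups and replicate numbers come from the sample titles. The deposited intensities are RMA values; the submitters' processing notes name Affymetrix Expression Console, and versions, build, detection calls and batches were not found in the labels. The values are linear (3.73 to 15793), so log2 was taken with no pseudocount. Of 41345 probe sets, 23521 had 1 gene symbol, 1814 several and 16010 none; symbols come from the platform annotation, and chromosomes and promoter windows from RefSeq, GRCm38.p6. All probe sets entered limma (version 3.58.1 in R 4.3.3; lmFit, eBayes, two-sided, Benjamini-Hochberg, threshold 0.05) with no covariate. Precision is limited by the 6 arrays (median SE 0.19).

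The members, the 7 related lists, the 13 marker lists and the alternatives were chosen with earlier results of these data known. Named were all members, the 3 genes of each related list with the smallest p, and the 3 genes most like Sox9, Nfia, Id3 and Hes5. Alternatives covered scaling, a filter, probe set choice, weights, a replicate block, a variance trend and arrays left out. Tested on simulated data of this comparison (41345 probe sets, 6 arrays), limma found 29 of 100 simulated log2 differences of 1 and 91 of 100 of size 2, besides 6 false calls.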

Additional observations from a re-analysis of the deposited data

How the results depend on the processing

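Among the 10 members, 5 of 160 values under 16 alternatives changed sign, in Nfib, Nfix and Id3. With array weights, 3 members passed the adjusted threshold, as did 6.32% of all probe sets; 7 of the related genes did too, but those were named for their small p. Leaving out 1 array gave -0.27 to 0.014 for Nfib and -0.021 to 0.27 for Nfix. On the arrays with Xist above Eif2s3y, Nfib was 0.14, Id3 0.017, Zcchc24 0.24 and Mmd2 0.16, and 3 members had lower means. Median centring gave 0.031 for Mmd2 and left 1 member fully lower. Leaving out 1 array gave -0.11 to 0.047 for Mmd2 and -0.17 to 0.34 for Apcdd1, which was -0.10 without wild type arrays 2 and 3. Nfib was 0.055 without those arrays and transgenic array 1, a setting added after seeing the data.

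No probe set passed an adjusted p of 0.05 in limma with all arrays, where 3668 passed unadjusted. Adjusted, 2611 passed with array weights, 1843 on the arrays with Xist above Eif2s3y, and 0 to 335 with 1 array left out, the 335 without transgenic array 2. Unadjusted, 10793 passed with weights, 10602 on the Xist arrays, 2243 with dim probe sets removed (fewer were tested), 2031 to 5168 with 1 array left out, 1470 without wild type arrays 2 and 3, and 1786 without transgenic array 1 as well. The cause was not tested. A lone array left in a group was assumed to vary like the other group. Titles share replicate numbers, and same-numbered arrays deviated with correlations of 0.01, -0.10 and -0.07, where other pairs ran from -0.07 to 0.11. With 3 arrays per group, these correlations cannot tell whether same-numbered arrays were paired. The replicate block gave 2999 unadjusted and 0 adjusted, and it changed no call of a member. The median of the members lay between -0.08 and 0.14 under all alternatives. Without detection calls, signal over background is unknown.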

Other observations

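Marker lists of other cells that lesions can hold were read on the same arrays, and no member of any list passed an adjusted p of 0.05 in limma. Ependymal genes, of the ventricle lining, had lower means in 5 of 6 measured members, with a median log2 difference of -0.45 and summed intensities of 377 to 618 in transgenic and 456 to 731 in wild type lesions. Microglial genes had lower means in 6 of 7, with sums of 1578 to 1837 in transgenic and 1633 to 4177 in wild type lesions, the highest on wild type array 1. Genes of infiltrating monocytes and macrophages were split, 4 lower and 3 higher. Their sums spread widely in both groups (483 to 1524 in transgenic and 558 to 1420 in wild type lesions). Most of that spread was Lyz2, the brightest gene of the list, at 7.98 to 10.30 in transgenic and 8.35 to 10.24 in wild type lesions. General neuronal genes had higher means in 8 of 9, with sums of 9363 to 12639 in transgenic and 9526 to 10149 in wild type lesions. Pericyte and smooth muscle genes had 4 lower and 3 higher means, with a median of -0.04. Endothelial genes had a median of 0.03. Striatal genes had lower means in 5 of 5, with a median of -1.48.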
